A study of Mus musculus with 2 samples.

Results

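The 9 Krueppel-like factor genes Klf2, Klf3, Klf4, Klf5, Klf6, Klf7, Klf9, Klf10 and Klf13 were examined for chromatin accessibility in hematopoietic stem cells (HSCs) of young and aged mice. They were chosen by name, and they are 9 of the 21755 protein-coding genes annotated on the autosomes and the X chromosome. For each gene, fragments were counted within 1 kb of the transcription start site (TSS), over the gene body and in 500-bp bins of the 100 kb on either side of the gene. Single-cell ATAC-seq, in which a transposase cuts open chromatin of single nuclei and so marks where it is open, had been performed on 2 libraries of bone marrow HSCs from C57BL/6 mice. The Young library came from animals 10 weeks old and the Aged library from animals 20 months old, and the labels give no transgene or treatment for either. The cells had been sorted as negative for IL-7 (as the labels write it), lineage markers, CD34, CD48 and Flt3, and as positive for Sca-1, c-kit and CD150. Female mice were used according to the methods of the study, and how many were pooled into a library was not given in the sources used here.

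With 1 library per age, no difference could be set against the spread between animals and no test was made. Every interval below is a 95% interval for counting error only, and differences between libraries and between ages cannot be told apart. After the limits of 3000 to 20000 fragments in the peaks of the authors, 4887 Young and 3405 Aged cells remained, and 26 barcode sequences occurred in both sets. These cells held 50065741 and 38659456 unique fragments, of which 34647097 (69.2%) and 26153783 (67.7%) had an end in a combined set of 165639 peaks. Levels are given as fragments per 1000000 of these in-peak fragments (FPM), and ratios as log2(Aged / Young) with 1 fragment added to each count. Short fragments, which are below the length of DNA wrapped around a nucleosome, made up 59.8% of Young and 55.02% of Aged fragments, and the median TSS enrichment was 5.78 and 5.30. Among defining HSC markers, the promoters of Kit (51.3 and 47.9 FPM), Meis1 (41.3 and 42.9 FPM) and Hlf (35.6 and 33.7 FPM) were open in both libraries, while Mecom had 18 and 14 fragments at its outermost annotated start. The T cell promoters Cd3e, Cd3d, Cd4 and Cd8a held between 15 and 73 Young and between 7 and 19 Aged fragments. With Lck, which alone gave 5.71 and 4.82 FPM, the 5 T cell markers summed to 9.70 and 6.69 FPM. The 6 granulocyte-monocyte markers summed to 19.1 and 19.3 FPM, the 5 megakaryocyte markers to 113 and 101 FPM, and the 10 HSC markers to 229.6 and 230.02 FPM. The 4 endothelial markers, of which Cdh5 held 68 and 32 fragments, summed to 53.7 and 56.1 FPM, the 4 stromal markers to 45.8 and 51.9 FPM, and the 4 erythroid markers that could be matched to 46.8 and 44.05 FPM. Among the markers given here, Slamf1 (log2 ratio 0.43), Elane (0.77) and Lepr (0.79) were higher and Itga2b (-0.35), Mpo (-0.65), Cd4 (-1.48) and Cdh5 (-0.66) lower in the Aged library by a log2 ratio of at least 0.32 in size with an interval beyond 0. Of smaller ratios, Kdr, the most open endothelial marker (801 and 742 fragments), read 0.30, Cxcl12 0.28, Procr 0.21 and Gata2 0.21, also with intervals above 0. The part of these markers in the results below was not tested.

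Krueppel-like factors are transcription factors with a run of zinc fingers at the C-terminal end, through which they bind CACCC boxes and other GC-rich sequences, and their N-terminal parts recruit activators or repressors. KLF2 and KLF4 are induced in endothelium by shear stress through the kinase ERK5 and MEF2 factors, and KLF2 is known to keep T cells quiescent. KLF4 is one of the factors used to reprogram somatic cells to pluripotency, KLF3 represses through the corepressor CtBP, and KLF9, KLF10 and KLF13 recruit the corepressor SIN3A. In blood, Klf2, Klf4, Klf6 and Klf10 also belong to the genes that respond rapidly to signals.

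The promoter sequences of 4 members are shown because these genes carry the highest promoter ratios (Klf2 and Klf4), the highest promoter level (Klf13) and the highest gene-body ratio (Klf9). They are RefSeq promoters on GRCm38, the build of mm10, 300 bases each and written 5′ to 3′ on the strand of the gene. Capitals mark matches to any of 11 short motifs searched on both strands. Of the 9 members, 7 were matched by symbol in the promoter table, and Klf5 and Klf10 were not.
Klf2 promoter, chr8:72318812-72319111, plus strand: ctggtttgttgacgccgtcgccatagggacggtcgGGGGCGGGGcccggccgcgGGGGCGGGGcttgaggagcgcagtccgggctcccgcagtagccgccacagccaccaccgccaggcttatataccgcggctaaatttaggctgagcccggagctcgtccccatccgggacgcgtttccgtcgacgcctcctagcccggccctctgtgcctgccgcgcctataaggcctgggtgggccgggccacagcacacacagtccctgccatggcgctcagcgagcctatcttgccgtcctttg
Klf4 promoter, chr4:55532426-55532725, minus strand: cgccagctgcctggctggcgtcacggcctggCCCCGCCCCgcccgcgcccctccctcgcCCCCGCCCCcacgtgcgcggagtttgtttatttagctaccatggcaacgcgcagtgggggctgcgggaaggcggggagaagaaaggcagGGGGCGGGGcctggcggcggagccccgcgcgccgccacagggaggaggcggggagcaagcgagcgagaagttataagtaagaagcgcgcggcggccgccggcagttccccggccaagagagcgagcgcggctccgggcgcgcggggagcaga
Klf9 promoter, chr19:23140976-23141275, plus strand: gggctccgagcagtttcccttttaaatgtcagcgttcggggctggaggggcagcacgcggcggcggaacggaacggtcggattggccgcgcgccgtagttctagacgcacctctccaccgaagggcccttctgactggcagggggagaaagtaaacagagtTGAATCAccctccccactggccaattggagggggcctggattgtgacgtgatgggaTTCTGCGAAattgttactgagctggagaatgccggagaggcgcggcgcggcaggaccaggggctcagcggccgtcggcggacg
Klf13 promoter, chr7:63938866-63939165, minus strand: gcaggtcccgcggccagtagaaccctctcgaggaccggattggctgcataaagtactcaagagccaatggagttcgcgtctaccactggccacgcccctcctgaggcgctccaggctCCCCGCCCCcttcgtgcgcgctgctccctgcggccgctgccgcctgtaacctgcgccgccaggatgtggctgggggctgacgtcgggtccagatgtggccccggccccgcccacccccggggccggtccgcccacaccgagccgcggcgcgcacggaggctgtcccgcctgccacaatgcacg

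GC content was 69.3% in the Klf2, 74.3% in the Klf4, 63.3% in the Klf9 and 72.0% in the Klf13 promoter, against a median of 53.0% over 32544 distinct promoters of the same length. The GC box, GGGGCGGGG, is a sequence that members of the SP and KLF families bind. It occurred at 2 places in the Klf2 promoter, at 3 in the Klf4 promoter and at 1 in each of the Klf13 and Klf3 promoters, and 11.5% of all promoters held at least 1. The CACCC box, CCACACCC, was found in 3.57% of all promoters and the MEF2 letters CTATTTAT in 1.11%, and neither occurred in the 7 windows. The capitals in the Klf9 promoter are a match to the AP-1 letters TGANTCA, present in 7.79% of all promoters, and a match to the STAT letters TTCNNNGAA, present in 8.33%. The Klf6 and Klf7 windows held none of the 11 motifs. Of the motifs for other blood factors, the GATA letters AGATAAG occurred in 3.02% of promoters. The RUNX letters were TGTGGTT, found in 5.29%. The PU.1 letters GAGGAAGT occurred in 3.11%, the CEBP letters TTGCGCAA in 0.184%, the ATF/CRE letters TGACGTCA in 1.80% and the CNC letters TGACTCAGC, which overlap AP-1, in 0.458%.

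The promoters of the 9 genes were open in both libraries and differed little between them. A log2 ratio of at least 0.32 in size was taken as the limit for promoters and gene bodies. At that limit 0 of the 9 promoters were higher and 0 lower in the Aged library, against 9.48% higher and 3.99% lower among the 15978 promoters with at least 50 fragments. Ratios from few fragments pass such a limit more easily by counting error. The 9 promoters held at least 945 fragments in each library, so this background is not matched to them in depth. The same holds for the gene bodies below. The median log2 ratio over the 9 promoters was -0.01, and that over all tested promoters -0.05. Klf5 lay lowest, with an Aged level below the Young one by more than counting error, and Klf2 and Klf4 lay highest, with intervals that held 0.

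**Figure D1:**
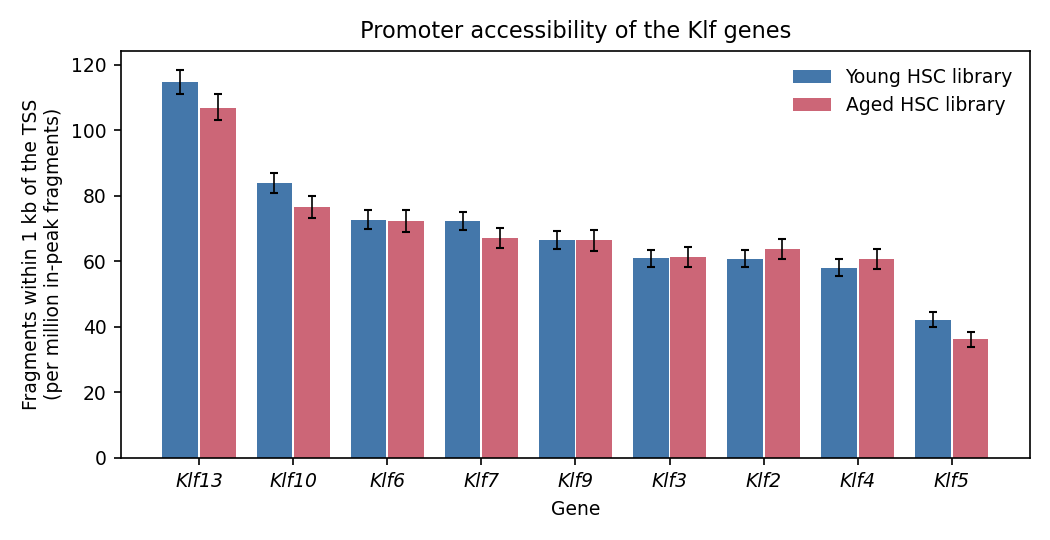
Promoter level of each Klf gene as fragments within 1 kb of the TSS per 1000000 in-peak fragments, with Young in blue and Aged in red, ordered by the Young level. Error bars are exact Poisson 95% intervals for counting error, 1 library per age. Levels run from 114.7 (Young) and 106.9 (Aged) for Klf13 down to 42.2 and 36.1 for Klf5.

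Among the members known mainly as activators, the Klf2 promoter (TSS at chr8:72319033) held 2104 Young and 1668 Aged fragments, which is 60.7 and 63.8 FPM, a log2 ratio of 0.07 (-0.02 to 0.16). The Klf4 promoter (TSS at chr4:55532466) held 2012 and 1584 fragments, or 58.1 and 60.6 FPM, a log2 ratio of 0.06 (-0.04 to 0.16). For both genes the Young and Aged intervals overlapped. Klf5, which drives proliferation in the intestinal crypt and other epithelia, had 1461 and 945 fragments at its promoter (TSS at chr14:99298691), or 42.2 FPM (40.03 to 44.4) and 36.1 FPM (33.9 to 38.5). Its log2 ratio of -0.22 (-0.34 to -0.10) stood at percentile 8.31 of all tested promoters. Klf6, a widely expressed factor induced by injury, had 2520 and 1891 fragments (72.7 and 72.3 FPM, TSS at chr13:5861482) and a log2 ratio of -0.01 (-0.10 to 0.08). Klf7, known for its role in neurons and adipocytes, had 2504 and 1754 fragments (72.3 and 67.1 FPM, TSS at chr1:64122282) and a log2 ratio of -0.11 (-0.20 to -0.02). The Klf7 interval lay below 0, while the ratio stood at percentile 31.9 of all tested promoters.

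Klf3, the CtBP-bound repressor, had 2109 Young and 1605 Aged fragments at its promoter (TSS at chr5:64803388), or 60.9 and 61.4 FPM, with a log2 ratio of 0.01 (-0.08 to 0.11). Of the SIN3A-bound members, Klf9, which glucocorticoids induce, had 2302 and 1736 fragments (66.4 and 66.4 FPM, TSS at chr19:23141226) and a log2 ratio of -0.00 (-0.09 to 0.09). These 2 promoters were level between the libraries within counting error, although that of Klf9 read 0.11 over 5 kb on either side and -0.16 with the density of its flanks subtracted. Klf10, an early target of TGF-β, had 2902 and 1999 fragments (83.8 and 76.4 FPM, TSS at chr15:38300706) and a log2 ratio of -0.13 (-0.21 to -0.05). Klf13, a regulator of the chemokine gene Ccl5 in T cells, had 3975 and 2797 fragments (114.7 and 106.9 FPM, TSS at chr7:63938915) and a log2 ratio of -0.10 (-0.17 to -0.03). In both of the latter the Aged level was the lower one and the intervals lay below 0.

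In all, 4 of the 9 promoter intervals lay below 0 and 0 above it, against 23.4% below and 12.2% above among all tested promoters. An interval is narrower where a promoter has more fragments, and the shares in this paragraph were not matched for depth. With fragments at all promoters as the scale instead, 1 lay below 0 (Klf5, -0.17, with an interval of -0.29 to -0.05) and 2 lay above it (Klf2, 0.12, 0.03 to 0.22, and Klf4, 0.11, 0.02 to 0.21), against 10.9% below and 16.2% above among all promoters on that scale. Among the 9 promoters, Klf5 alone kept its interval beyond 0 on each of the 4 scales tried. The scale of all promoters gives the highest ratios. The 10.9% of all promoters with intervals below 0 on it are therefore below 0 on each of the 4 scales, as Klf5 is.

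The order of the promoter levels was nearly the same at both ages. All 9 promoters ranked in the upper part of the 21755, from percentile 79.6 for Klf5 to percentile 99.8 for Klf13. The level of Klf13 was 1.37 times that of the next gene, Klf10, among Young cells (1.31 to 1.44) and 1.40 times among Aged cells (1.32 to 1.48). At the other end, the level of Klf4 was 1.38 times that of Klf5 among Young (1.29 to 1.47) and 1.68 times among Aged cells (1.55 to 1.82). Between these ends many neighbours could not be ordered: in the Young library Klf6 and Klf7, Klf3 and Klf2, and Klf2 and Klf4 differed by no more than counting error, and in the Aged library Klf10 and Klf6, Klf7 and Klf9, Klf9 and Klf2, Klf2 and Klf3, and Klf3 and Klf4 did.

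Several members have more than 1 annotated start. Each start was counted within 1 kb on either side, so the windows of close starts share fragments, as those of Klf10 and Klf7 given here do. The transcript start of Klf10 that lies 911 bp inside the gene held more fragments than the outermost one, 3500 Young and 2539 Aged, with a log2 ratio of -0.06 (-0.13 to 0.02). An inner start of Klf13, 14045 bp downstream, held 1588 and 1318 fragments, with a log2 ratio of 0.14 (0.03 to 0.24), opposite in sign to the outer promoter of the same gene. An inner start of Klf9, 2418 bp downstream, held 398 and 381 fragments, a log2 ratio of 0.34 (0.14 to 0.55). For Klf7, the start 800 bp downstream gave nearly the same counts as the outer one, 2602 and 1830. The inner start of Klf3 at 8951 bp had 1138 and 779 fragments and a log2 ratio of -0.14 (-0.27 to -0.01). The start of Klf6 at 3196 bp had 1256 and 952 fragments, with 0.01 as its log2 ratio (-0.12 to 0.13).

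Promoter openness was also read per cell. Because cells differ in depth, all were thinned to the same 3000 in-peak fragments, and the 100 Young and 134 Aged cells below that were left out, so that 4787 and 3271 remained. The share of cells with a fragment at the promoter ranged from 12.1% (Klf5) to 29.5% (Klf13) for Young and from 10.5% (Klf5) to 26.8% (Klf13) for Aged cells. Promoters of 1135 olfactory receptor genes, which are silent in blood, gave medians of 0.0418% and 0.0306%. Klf13 was seen in 1414 of 4787 Young cells (29.5%, 28.2 to 30.9) and 877 of 3271 Aged cells (26.8%, 25.3 to 28.4), and Klf5 in 579 (12.1%, 11.2 to 13.1) and 345 cells (10.5%, 9.51 to 11.7). Klf2 was seen in 17.3% and 17.1%, Klf4 in 16.3% and 16.9%, Klf6 in 19.3% and 19.9%, and Klf9 in 17.5% and 17.5%. For each gene the Young and Aged intervals overlapped, which does not measure the difference between the libraries and does not show the shares to be equal. A thinned cell had a fragment at 1.69 ± 1.20 (SD over cells) of the 9 promoters if Young and at 1.63 ± 1.15 if Aged, and 16.8% and 16.5% of cells had none. Without thinning the shares were between 24.9% and 53.7% for Young and between 23.3% and 51.8% for Aged cells.

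**Figure D2:**
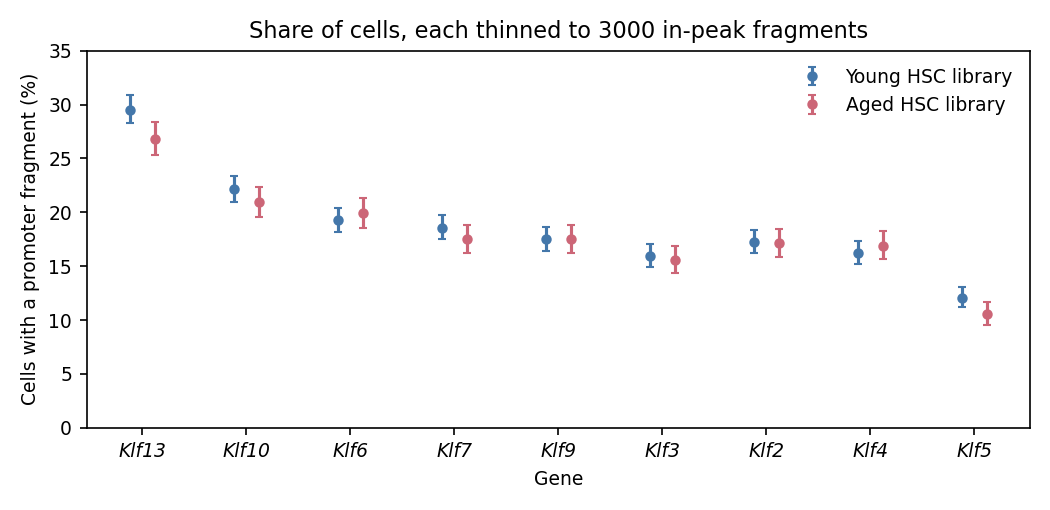
Percentage of cells with at least 1 fragment within 1 kb of each TSS, after every cell was thinned to 3000 in-peak fragments, for 4787 Young (blue) and 3271 Aged (red) cells. Bars are exact binomial 95% intervals. The intervals of the libraries overlap for every gene, which does not measure the difference between them.

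Short fragments made up between 70.4% (Klf9) and 79.6% (Klf13) of the fragments at these promoters in the Young library and between 68.5% (Klf9) and 77.9% (Klf13) in the Aged library. The share was lower in the Aged library at each of the 9, by 1.37 percentage points at Klf2 to 3.80 points at Klf4. Over all promoters it was 67.6% and 63.9%, so the loss at the Klf genes was in the same direction as that of the whole library, whose part in the ratios was not tested beyond a count of short fragments alone. With short fragments alone, the promoter ratio of Klf2 became 0.13 and that of Klf3 0.07.

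Over the gene bodies the log2 ratios ranged from -0.26 to 0.32. At the same limit 0 of the 9 bodies were higher and 0 lower, against 9.18% higher and 3.24% lower among 18444 gene bodies with at least 50 fragments. Klf9 lay just under the limit, and 4 intervals lay above 0 (Klf2, Klf4, Klf6 and Klf9) and 2 below it (Klf3 and Klf5). Among all tested bodies 19.6% of intervals lay above 0 and 20.2% below it, and an interval is narrower where a gene has more fragments. These counts depended on the scale. With all nuclear fragments as the scale 2 lay above 0 (Klf2 and Klf9) and 4 below it (Klf3, Klf5, Klf7 and Klf10), against 16% above and 28.3% below among all bodies. With fragments at all promoters as the scale 5 lay above 0 (Klf2, Klf4, Klf6, Klf9 and Klf13) and 1 below it (Klf5), against 26.7% above and 9.92% below. The median over the 9 was 0.01, and over all bodies tested -0.02.

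The body of Klf9, 26909 bp long (chr19:23141226-23168134), held 3130 Young and 2948 Aged fragments, or 3.36 and 4.19 FPM per kb. Its log2 ratio of 0.319 (0.25 to 0.39) fell short of the limit of 0.322, and it passed on 2 of the 3 other scales (0.37 with promoter fragments as the scale). The share of all bodies past the limit was not taken on those scales. Leaving out the first 1 kb, Klf9 had 2534 and 2462 fragments, a log2 ratio of 0.36 (0.28 to 0.44). The sum of all fragments outside peaks had a log2 ratio of 0.10 on the in-peak scale, which is the value to read those outside peaks against here and in the genes that follow. The Klf9 difference was present in fragments with an end in a peak (1009 and 926, log2 ratio 0.28, 0.15 to 0.41) and in those outside peaks (1525 and 1536, log2 ratio 0.42, 0.31 to 0.52). Along Klf9 the Aged level was thus the higher one both inside and outside peaks, beside a level promoter.

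Klf2, a short gene of 2624 bp, also had a higher Aged level beyond its promoter. Its body held 1357 and 1187 fragments, or 14.9 and 17.3 FPM per kb, the highest density of the 9 genes, with a log2 ratio of 0.21 (0.10 to 0.33). Past the first 1 kb it had 463 and 477 fragments, 13.4 and 18.2 FPM, a log2 ratio of 0.45 (0.26 to 0.64), which is past the limit, and 463 and 476 of these fragments lay outside peaks. Klf2 and Klf9 were the 2 of 9 members past it in this count, and 12.4% of 17768 gene bodies beyond 1 kb were higher and 5.81% lower. In cells of 5000 to 10000 fragments in the peaks of the authors, the ratio of the whole Klf2 body was 0.12.

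For Klf6 the body (8913 bp) held 2886 and 2334 fragments, a log2 ratio of 0.10 (0.02 to 0.18). Past 1 kb, the fragments in peaks were level (1244 and 930, log2 ratio -0.01, -0.14 to 0.11) and those outside peaks were higher (1031 and 953, log2 ratio 0.29, 0.16 to 0.42). Klf4 (5324 bp) held 1145 and 961 fragments, a log2 ratio of 0.15 (0.03 to 0.28), which was 0.03 in short fragments alone.

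Klf5 was lower over its body as well, with 885 and 558 fragments on 16346 bp and a log2 ratio of -0.26 (-0.42 to -0.11). The first 1 kb of the body lies in the promoter window, so the body and promoter ratios share fragments. Past 1 kb Klf5 had 285 and 207 fragments and a log2 ratio of -0.05 (-0.32 to 0.21). That interval holds both 0 and the value of the whole body, so it does not place the difference within the gene. Klf3 (29514 bp) held 4426 and 3180 fragments, a log2 ratio of -0.07 (-0.14 to -0.01), and its fragments in peaks past 1 kb were lower (3099 and 2124, log2 ratio -0.14, -0.22 to -0.06). The bodies of Klf7 (4498 and 3248 fragments, log2 ratio -0.06), Klf10 (3494 and 2560, -0.04) and Klf13 (11366 and 8665, 0.01) had intervals that held 0 on the in-peak scale.

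**Figure D3:**
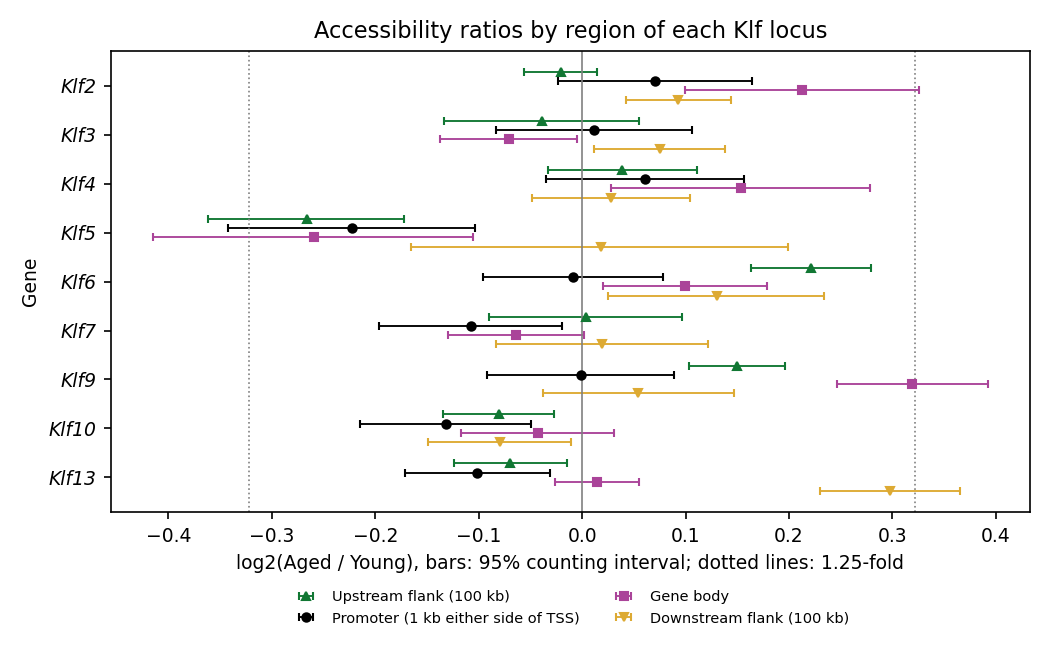
Log2(Aged / Young) of the 100-kb upstream flank (green triangles), promoter (black circles), gene body (purple squares) and 100-kb downstream flank (yellow triangles) of each Klf gene. Bars are 95% counting intervals and dotted lines mark the limit of 0.32 in size. Klf5 lies to the left upstream, at the promoter and over the body, while the Klf9 body, the Klf6 upstream flank and the Klf13 downstream flank lie to the right of the promoters of these genes. The promoter window reaches into the gene body and the upstream flank, so these values of a gene share fragments and are not separate support.

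The summed flanks also differed between the genes. Such sums were not made for the flanks of other genes, so these have no background and are set against 0 only. A flank holds fragments in and outside peaks, and all fragments outside peaks had a log2 ratio of 0.10 on this scale. The upstream flank also takes in the part of the promoter window that lies before the TSS. Summed over bins, the upstream flank of Klf5 held 2344 Young and 1471 Aged fragments, a log2 ratio of -0.27 (-0.36 to -0.17), next to a downstream flank that was nearly closed in both libraries (576 and 440 fragments, log2 ratio 0.02, -0.17 to 0.20). Upstream of Klf6 there were 5162 and 4543 fragments, a log2 ratio of 0.22 (0.16 to 0.28), and upstream of Klf9 8178 and 6847, a log2 ratio of 0.15 (0.10 to 0.20). Downstream of Klf13 there were 3710 and 3442 fragments, a log2 ratio of 0.30 (0.23 to 0.36), while upstream of it the ratio was -0.07 (-0.12 to -0.01). Klf10 read -0.08 upstream (-0.13 to -0.03) and -0.08 downstream (-0.15 to -0.01), and the flank intervals of Klf4 and Klf7 held 0. A flank can hold elements and promoters of other genes, such as Ap1m1 and Eps15l1 beside Klf2, so these sums describe the neighbourhood and not the gene.

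Of the 500-bp bins in these flanks, 347 had at least 50 fragments. In the Aged library 47 (13.5%) were at least 1.5-fold higher and 20 (5.76%) at least 1.5-fold lower, near the background of 11.4% higher and 5.14% lower among 242221 such bins around all genes. The bins were unevenly spread, with 13 of the 47 higher bins downstream of Klf2, 8 downstream of Klf13 and 7 upstream of Klf6. In these flanks 42, 19 and 30 bins were tested. The number tested ranged from 2 downstream of Klf5, of which 2 were higher, to 52 upstream of Klf2, of which 3 were. Where adjacent bins were past 1.5-fold in the same direction, their fragments were counted again over the whole stretch, which gave 8 higher and 4 lower stretches, of 5146 higher and 1581 lower ones around all genes. These stretches were singled out after their values had been seen, so their ratios are a description.

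The longest was a run of 5 bins just beyond the 3′ end of Klf2, from 4468 to 6967 bp downstream of its TSS (chr8:72323501-72326000). It held 139 fragments from 122 Young cells and 242 fragments from 204 Aged cells, or 4.01 and 9.25 FPM, a 2.30-fold difference (log2 ratio 1.20, 0.90 to 1.52). The stretch begins beyond a peak 3497 bp downstream of the TSS that was level between the libraries (1000 and 744 fragments, log2 ratio -0.02, -0.16 to 0.12), and no combined peak lay within the stretch. Around all protein-coding genes there were 92 higher runs of at least 5 bins. The share of short fragments in the Klf2 stretch was 47.5% and 46.3%, below the 76.2% and 74.8% at its promoter.

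The largest ratio was downstream of Klf13, between 86415 and 87414 bp from its TSS and past the end of the gene (chr7:63851501-63852500). This intergenic kilobase held 47 fragments from 44 Young cells and 125 fragments from 119 Aged cells, or 1.36 and 4.78 FPM, a 3.48-fold difference (log2 ratio 1.80, 1.32 to 2.33). No cell gave more than 2 of these fragments in either library. The higher of its 2 bins had a log2 ratio of 2.08, a value reached by 0.305% of the tested bins around all genes. A peak inside it, of 42 and 112 fragments, was under the minimum of 200 set for peaks.

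Other higher stretches of 1000 bp lay 71482 to 72481 bp upstream of Klf6 (48 and 82 fragments, log2 ratio 1.17, 0.65 to 1.72), 54726 to 55725 bp upstream of Klf9 (87 and 132, 1.002, 0.61 to 1.41) and 27775 to 28774 bp downstream of the Klf9 TSS, just past the end of that gene (82 and 115, 0.89, 0.47 to 1.32). Lower stretches lay 18726 to 19725 bp upstream of Klf9 (57 and 20 fragments, log2 ratio -1.06, -1.92 to -0.35), 118282 to 119281 bp downstream of the Klf7 TSS (77 and 28, -1.02, -1.73 to -0.41), 96706 to 97705 bp downstream of Klf10 (107 and 45, -0.83, -1.38 to -0.33) and 26519 to 27518 bp downstream of Klf6 (175 and 80, -0.71, -1.12 to -0.33). On the upstream side of Klf9 there was thus 1 higher and 1 lower stretch. The remaining 3 higher stretches lay downstream of Klf2, in introns of Eps15l1 (82 and 112 fragments, and 62 and 84), and downstream of Klf5 beside a pseudogene (43 and 53).

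**Figure D4:**
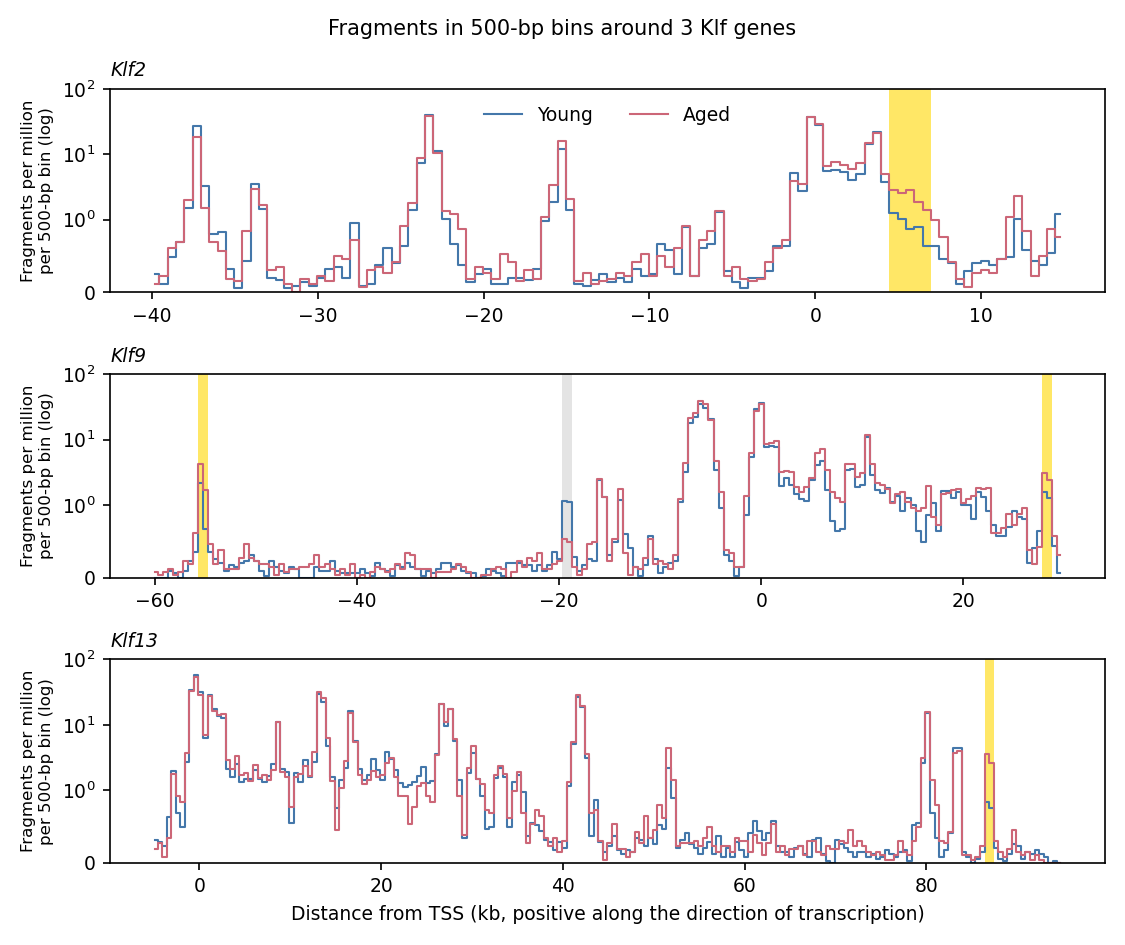
Fragments per 1000000 in-peak fragments in each 500-bp bin (log scale above 1, linear below) against distance from the TSS for Klf2, Klf9 and Klf13, Young in blue and Aged in red. Gold marks runs of adjacent bins at least 1.5-fold higher and grey a run at least 1.5-fold lower in the Aged library. The tall peaks coincide at both ages, and the runs lie on weak signal beside or between them.

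At the level of peaks, 115 of the 232 combined peaks in and around the 9 genes had at least 200 fragments. Of these, 3 (2.61%) were at least 1.5-fold higher and 3 (2.61%) at least 1.5-fold lower in the Aged library, against 5.93% higher and 2.17% lower among 66606 peaks. With fragments at all promoters as the scale, 6 were higher and 2 lower, where 7% of all tested peaks were higher and 1.68% lower. The median log2 ratio was -0.01 around the Klf genes and -0.02 over all. Klf5, Klf7 and Klf10 had no peak past 1.5-fold. All 6 peaks past it were weak, with between 207 and 342 fragments in both libraries together.

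The higher peaks were an intergenic one 55296 bp upstream of Klf9 (chr19:23085601-23086260, 83 Young and 124 Aged fragments, log2 ratio 0.98, 0.57 to 1.40) and one in the 3′ untranslated region of Klf13, 51785 bp from its TSS (chr7:63886811-63887450, 83 and 126 fragments, 1.002, 0.60 to 1.43). The other was intergenic, 42981 bp downstream of the Klf4 TSS (chr4:55489151-55489820, 120 and 149 fragments, log2 ratio 0.72, 0.36 to 1.08). The lower peaks lay 1223 bp upstream of the Klf2 TSS (chr8:72317741-72317880, 140 and 68 fragments, log2 ratio -0.63, -1.08 to -0.21) and 83882 bp downstream of the Klf3 TSS in intergenic sequence towards Tlr1 (chr5:64887061-64887480, 234 and 108 fragments, -0.70, -1.05 to -0.37). The last lay 27093 bp downstream of the Klf6 TSS in an intron of the noncoding gene Gm47507 (chr13:5888131-5889020, 175 and 81 fragments, log2 ratio -0.70, -1.10 to -0.32). Each of the 6 intervals excluded 0, as that of any peak past 1.5-fold with at least 200 fragments would, so this is no further support. The Klf9 and Klf6 peaks lie in the stretches described above and are the same elements. For the Klf6 stretch the ratio in cells of 5000 to 10000 fragments in the peaks of the authors was -0.36. The peak next to Klf2 is separate from the promoter peak of that gene, which was level (1888 and 1474 fragments, log2 ratio 0.05, -0.05 to 0.15).

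Among all 115 tested peaks, 17 intervals lay below 0 and 20 above it, a count for which no background over all peaks was taken. Stronger peaks with smaller ratios lay near Klf5 and Klf2, among other members, and those named here were singled out after their values had been seen. Of the 2 Klf5 peaks with enough fragments, the intergenic one 32701 bp upstream held 741 Young and 393 Aged fragments, a log2 ratio of -0.51 (-0.69 to -0.33), and the promoter peak held 1423 and 905, a log2 ratio of -0.25 (-0.37 to -0.13). The Aged level was the lower one at both. Their fragments were already part of the Klf5 flank and promoter counts above, so these peaks are not further support. Upstream of Klf2, a peak at 37218 bp held 955 and 487 fragments, a log2 ratio of -0.56 (-0.73 to -0.41), with level peaks on either side at 50408 bp (1944 and 1403 fragments, -0.06, -0.16 to 0.04) and 23378 bp (1667 and 1217, -0.05, -0.16 to 0.06). Peaks at 46458 bp (271 and 262 fragments, log2 ratio 0.36, 0.11 to 0.61) and 15398 bp upstream of Klf2 (454 and 464, 0.44, 0.25 to 0.63) went the other way.

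The peak with most fragments was the promoter peak for Klf3, Klf4, Klf5, Klf6, Klf7 and Klf13, and their log2 ratios ran from -0.25 for Klf5 to 0.03 for Klf4. For Klf10 it was the peak 1406 bp inside the gene (2376 and 1742 fragments, log2 ratio -0.04, -0.13 to 0.05). For Klf9 it was a wide peak of 2170 bp located 6091 bp upstream, beside the start of the noncoding gene 2410080I02Rik (3468 and 2930 fragments, log2 ratio 0.16, 0.09 to 0.23). For Klf2 it was the promoter of the neighbouring gene Ap1m1 (2362 and 1546 fragments, log2 ratio -0.21, -0.30 to -0.11).

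**Figure D5:**
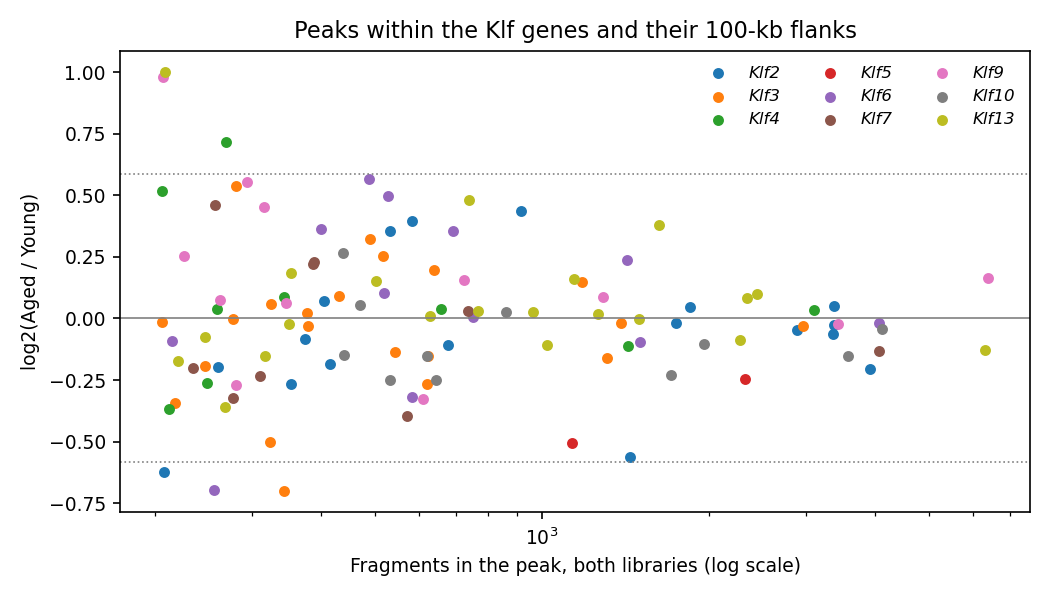
Log2(Aged / Young) of the 115 peaks with at least 200 fragments in and around the 9 Klf genes against their fragments in both libraries (log scale), coloured by gene, with dotted lines at 1.5-fold. The 6 peaks outside the lines have at most 342 fragments, and the peaks of over 1000 fragments lie inside them.

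Sequences of 5 of the 6 peaks past 1.5-fold are shown so that they can be searched for other motifs, with those of the peak in the Klf13 stretch and of the upstream Klf5 peak, both chosen after their values had been seen. Each is a window of 200 bases about the centre of the peak, on the plus strand of GRCm38 and longer than the Klf2 peak of 140 bp, with matches to the same 11 motifs in capitals.
Klf9 upstream, higher, chr19:23085830-23086029: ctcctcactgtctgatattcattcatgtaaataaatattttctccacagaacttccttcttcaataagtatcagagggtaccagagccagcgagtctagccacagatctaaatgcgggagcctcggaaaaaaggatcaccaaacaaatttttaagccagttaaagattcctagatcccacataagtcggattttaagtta
Klf4 downstream, higher, chr4:55489385-55489584: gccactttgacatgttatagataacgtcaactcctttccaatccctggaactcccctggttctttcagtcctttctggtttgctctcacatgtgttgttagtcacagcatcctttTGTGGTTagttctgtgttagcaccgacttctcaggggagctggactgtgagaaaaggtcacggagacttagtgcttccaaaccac
Klf13 downstream, in the higher stretch and under the minimum for peaks, chr7:63851930-63852129: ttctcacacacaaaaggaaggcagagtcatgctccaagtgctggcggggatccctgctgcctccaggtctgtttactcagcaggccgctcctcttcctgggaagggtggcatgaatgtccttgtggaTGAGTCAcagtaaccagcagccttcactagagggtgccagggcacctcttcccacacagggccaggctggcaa
Klf2 upstream, lower, chr8:72317710-72317909: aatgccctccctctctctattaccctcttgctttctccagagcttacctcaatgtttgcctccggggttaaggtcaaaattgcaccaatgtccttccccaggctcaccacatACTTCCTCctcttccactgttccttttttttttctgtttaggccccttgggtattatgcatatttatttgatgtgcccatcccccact
Klf3 downstream, lower, chr5:64887170-64887369: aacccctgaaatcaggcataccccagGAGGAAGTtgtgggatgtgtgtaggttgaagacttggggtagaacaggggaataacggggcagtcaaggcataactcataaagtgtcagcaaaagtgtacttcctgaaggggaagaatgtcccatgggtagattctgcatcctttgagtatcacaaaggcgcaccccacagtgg
Klf6 downstream, lower, chr13:5888475-5888674: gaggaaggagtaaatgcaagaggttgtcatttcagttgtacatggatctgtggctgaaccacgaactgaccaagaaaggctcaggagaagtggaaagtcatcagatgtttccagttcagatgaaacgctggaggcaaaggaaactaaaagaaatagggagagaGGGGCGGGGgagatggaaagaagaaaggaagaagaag
Klf5 upstream, below the Young level but within 1.5-fold, chr14:99265890-99266089: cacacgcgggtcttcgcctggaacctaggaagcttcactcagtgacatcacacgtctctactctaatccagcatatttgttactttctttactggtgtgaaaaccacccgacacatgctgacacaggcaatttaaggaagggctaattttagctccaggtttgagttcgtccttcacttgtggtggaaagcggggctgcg

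The Klf13 element held an AP-1 match, a motif found in 7.75% of 66606 tested peaks of the same length, and the Klf4 element a RUNX match, found in 7.90%. The lower Klf2 and Klf3 elements each held a PU.1 match (5.30% of peaks), and the lower Klf6 element a GC box (4.24%). The Klf9 and Klf5 elements held none of the 11. A match is a description of letters and not a bound site. The other motifs occurred in 2.14% (CACCC box), 0.701% (ATF/CRE), 1.35% (CNC), 3.03% (GATA), 0.0706% (CEBP), 5.72% (STAT) and 0.518% (MEF2) of the tested peaks.

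Related genes were read at their promoters from lists of other family members, partners and targets. Of the 8 other Krueppel-like factor genes, 7 had enough fragments. At the limit of 0.32 in log2 ratio 2 of these were higher and 0 lower, while the median of the 7 was -0.09. Among all tested promoters 9.48% were higher and 3.99% lower, which is also the background for the lists that follow. Klf15, a metabolic regulator in liver and muscle, had 432 Young and 415 Aged fragments, a log2 ratio of 0.35 (0.15 to 0.55), and Klf14 had 242 and 229, a log2 ratio of 0.33 (0.06 to 0.59). Both were far less open than the 9 members, at 12.5 and 15.9 FPM for Klf15 and 6.98 and 8.76 FPM for Klf14. Klf1, the erythroid factor, had 241 and 156 fragments (6.96 and 5.96 FPM), a log2 ratio of -0.22 (-0.52 to 0.07), and Klf17, with 21 and 4, was under the minimum. Both, like S1pr1 and Atf3 among the lists that follow, were named after their values had been seen. In the related SP family, 1 of 8 tested genes was higher, Sp9, with 264 and 270 fragments and a log2 ratio of 0.44 (0.19 to 0.69).

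Of 11 cofactors, which include Ctbp1, Ctbp2, Sin3a and Sin3b, 0 passed the limit in either direction, with a median of -0.07. Of the 7 genes of the route from ERK5 to MEF2, 6 had enough fragments and 0 passed, with log2 ratios from -0.21 to 0.02 and a median of -0.13. Of the 8 known targets of KLF2 in lymphoid and endothelial cells, 1 was lower, Ccr7, the homing receptor for lymph nodes, with 137 and 70 fragments and a log2 ratio of -0.55 (-0.9998 to -0.14). S1pr1, the egress receptor that KLF2 induces in T cells, had 1225 and 1009 fragments, a log2 ratio of 0.13 (0.00 to 0.25). The other targets lay within the limit.

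The 15 immediate early and stress genes were included because handling of cells can induce such genes together with Klf2, Klf4 and Klf6. Of them 1 was higher and 2 were lower, with a median of -0.04 and a summed level of 699.3 and 686.7 FPM. The higher one was the heat shock gene Hspa1b (723 and 686 fragments, log2 ratio 0.33, 0.18 to 0.48), which has a near-identical copy, Hspa1a, so its count is uncertain. The lower ones were Nr4a1, a nuclear receptor (1360 and 793 fragments, -0.37, -0.50 to -0.25), and Atf3 (80 and 41 fragments, -0.54, -1.14 to 0.00). The part of these genes in the Klf ratios was not tested.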

How the data were processed

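Single-cell ATAC-seq libraries of young and aged HSCs had been prepared with a droplet kit (10x Genomics Chromium Next GEM, v1.1). The submitters' processing notes name mm10, Cell Ranger ATAC and Signac without releases. The study's methods name a release of each, but the columns of the deposited barcode table are laid out as in an earlier release of Cell Ranger ATAC, so no release is printed. With that pipeline the authors aligned the reads, collapsed duplicate read pairs and called cells for every library on its own. The deposited files hold raw counts, read pairs per unique fragment and fragments per barcode, with no normalization, and a deposited 0 or 1 mark for barcodes called as cells, which was used as another kind of value.

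From these lists, fragments of kept cells on the autosomes and X were counted once in a window if at least 1 end lay in it (Python 3.11.15, numpy 2.4.6, scipy 1.17.1). Peaks were called per library on cut sites in windows of 151 bp against the local mean of 10000 bp (Poisson, q under 0.001), which gave 150803 Young and 146464 Aged peaks, merged into 165639. Totals were 53786133 and 48333115 unique fragments, and counts are less precise where fewer fragments were seen. Gene positions came from GENCODE M21 on GRCm38. Ratios have Clopper-Pearson intervals of the Aged share of fragments, sums Poisson intervals and shares binomial ones, all for counting error only. No doublet caller was run. The counting was tested on simulated data.

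The members and lists were chosen with earlier results of these data known. All 9 members were described, then list genes past 1.25-fold whose interval excluded 0 (Klf1, Klf17, S1pr1 and Atf3 were added after their values were seen, as were the HSC and T cell promoters named with the libraries), and per member the peak with most fragments and up to 3 peaks past 1.5-fold. Alternatives covered scaling, windows, cells, fragment length, minimum counts, pseudocount and thresholds. The study's lists of changed regions were not used here, and its peak calls entered only through the limits on which cells were kept. One list of cell type markers is not reported here.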

Additional observations from a re-analysis of the deposited data

How the results depend on the processing

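Over 13 alternatives, 114 of 117 promoter ratios of single genes stayed inside their counting intervals, and over 8 alternatives 67 of 72 gene-body ratios did. Since none was past the limit, signs near 0 could turn, as for the Klf9 promoter (-0.16 to 0.11) and the bodies of Klf10 (-0.13 to 0.02) and Klf13 (-0.02 to 0.07). The counts of promoters past the limit stayed at 0 under these alternatives. The median promoter ratio moved to -0.10 with the flank density subtracted, and the median gene-body ratio to 0.065 with promoter fragments as the scale. Klf genes higher over the body numbered 1 (Klf9) with promoter fragments as the scale, with the median over peaks set to 0 and with short fragments alone, and 2 past the first 1 kb (Klf2 and Klf9, where 12.4% of all bodies were higher). Apart from the count past 1 kb, no share over all bodies was taken at these settings. The other body counts therefore have no background. Flank bins numbered 17 higher and 7 lower at a minimum of 100 fragments, and 20 higher and 5 lower at 2-fold. They numbered 21 higher and 15 lower in cells of 5000 to 10000 fragments in the peaks of the authors. In short fragments alone 18 were higher and 14 lower. With fewer cells or fragments, fewer bins pass the minimum. Higher peaks numbered 6 (with 2 lower) with promoter fragments as the scale. In cells of 5000 to 10000 fragments in the peaks of the authors 1 peak was higher and 2 were lower. In short fragments 1 peak was higher and 1 lower. At a minimum of 100 fragments 9 peaks were higher and 7 lower, and at 500 there were 0 higher and 0 lower. Apart from peaks with promoter fragments as the scale, no share over all bins or all peaks was taken at these settings. These counts of bins and peaks therefore cannot be set against a background. The stretches were also counted in cells of 5000 to 10000 fragments in the peaks of the authors, an alternative chosen after seeing the data. There the log2 ratio was 1.23 at the long Klf2 stretch, 1.89 at Klf13 and -0.36 at the lower Klf6 stretch, and all 12 stretches kept their sign. All nuclear fragments as the scale, also chosen then, shift every ratio by the same amount and so could not turn these. No paired analysis was possible because each age has 1 library. The weak elements rest on few fragments, which widens their intervals.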
